A study of Rattus norvegicus with 6 samples.

Results

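The libraries described here are the 3 made from rat common carotid arteries 1 day after recanalization and the single library from a normal common carotid artery, 4 of the 6 libraries of the study. They were chosen by their labels alone. The day 1 arteries had first been occluded by a clot through ferric chloride, an oxidizing salt harmful to the vessel lining. Flow was then restored by sonodynamic therapy, a method that activates a sensitizer by ultrasound, together with physical-explosion therapy, the submitters' own term. The control artery had neither the injury nor the treatment, and no group had only one of them, so ferric chloride, clot and therapy cannot be told apart here. Strain, age and sex are not given in the labels, and nothing there says whether the 3 day 1 libraries come from separate animals. The 2 remaining libraries, taken 7 days after recanalization, entered the statistical fit only for their share of the spread.

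A carotid artery is built of a thin endothelium, a media of smooth muscle cells between elastic sheets, and an outer adventitia of fibroblasts, nerves and small vessels. After acute injury such a wall is known to release chemokines, which draw neutrophils first and monocytes after them, to switch on NF-kB and AP-1 transcription factors, and to let smooth muscle cells leave their contractile state and divide. Plasminogen activators, metalloproteinases and matricellular proteins then remodel clot and matrix.

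Messenger RNA was selected with poly(T), and the deposited gene counts summed to 36076387, 31188546 and 30078022 in day 1 replicates 1, 2 and 3, against 32013817 in the control. Levels are given as CPM, counts per 1000000 of the library total after scaling by trimmed mean of M-values. The 3 day 1 values always stand in the order of replicates 1, 2 and 3. Defining genes of the labelled tissue were abundant in all 4 libraries: Myh11, the smooth muscle myosin, had 7643, 1671 and 3306 CPM at day 1 against 10566 in the control. Transcripts of other tissues were present too. Of 12 adipocyte markers 4 could be tested, with a summed level of 214, 248 and 163 CPM at day 1 against 365 in the control. The 4 went both ways, 2 being at least 2-fold higher and 1 at least 2-fold lower in replicates 2 and 3 alone. Their median difference from the control was -0.72, 1.77 and 0.64 log2 CPM. Of 10 mast cell markers 1 could be tested, and of 10 thyroid and parathyroid markers 3. Of 16 skeletal muscle markers 16 could be tested, and of 15 nerve and Schwann cell markers 13.

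The first of the day 1 libraries was unlike the others. Its log2 CPM, compared gene by gene with no independence between genes, correlated with replicates 2 and 3 at Pearson r of 0.883 and 0.919 and with the control at 0.948, whereas replicates 2 and 3 correlated with each other at 0.958. The summed level of 19 monocyte and macrophage markers was 71.8, 6832 and 3147 CPM at day 1 against 105 in the control, so replicate 1 held no more of these transcripts than the normal artery. Of the 19, 3 were at least 2-fold above the control in replicate 1, 17 in replicate 2 and 18 in replicate 3, and Cx3cr1 was at 0 counts in replicate 1 and the control. The summed level of 15 neutrophil markers, among them Itgb2 of all leukocytes, was 44.6, 622 and 338 CPM at day 1 against 6.98 in the control. Their medians were closer together, at 2.47, 3.26 and 4.21 log2 CPM above the control. Of the 15, 13 were at least 2-fold above the control in replicate 1, 12 in replicate 2 and 14 in replicate 3. Whether the label of replicate 1 is right was not tested. Every result below is therefore given for each library. It is sorted by whether it held in all 3 day 1 libraries or in replicates 2 and 3 alone. In tissue RNA, fewer cells of a type and less RNA per cell cannot be told apart.

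Of 15860 genes with enough counts to test, 1126 (7.10%) were at least 2-fold higher than the control in all 3 day 1 libraries and 408 (2.57%) at least 2-fold lower. A further 1444 (9.10%) were at least 2-fold higher in replicates 2 and 3 but not in replicate 1, and 529 (3.34%) at least 2-fold lower. Replicate 1 alone was 2-fold higher for 352 genes (2.22%) and 2-fold lower for 639 (4.03%). Here neither other day 1 library passed 2-fold in the same direction, though it may have passed it in the opposite one. The 2-fold bound was applied to log2 CPM with a prior count of 2, which shrinks differences of low genes but still lets a gene at 0 in the control enter a class on a few counts, where the floor of 3 control counts used for folds may give less than 2-fold. These classes compare single libraries, share 1 control library and carry no test, so an unusual value in the control would move all 3 differences together. Over all tested genes the median difference from the control was 0, 0.01 and 0.02 log2 CPM in replicates 1 to 3.

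Among the 1444 genes higher in replicates 2 and 3 alone, replicate 1 lay above the control for 572 and not above it for 872, of which 230 were at least 2-fold lower. Among the 529 lower ones it lay below the control for 356 and not below it for 173. Replicate 2 was the most distant library, with 3688 genes at least 2-fold higher and 2237 at least 2-fold lower than the control, against 3023 and 1369 for replicate 3 and 1857 and 1724 for replicate 1.

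With all 6 libraries in 1 edgeR quasi-likelihood fit, no gene passed a Benjamini-Hochberg adjusted p of 0.05, neither higher (0%) nor lower (0%). At an unadjusted p under 0.05 there were 1373 genes, 972 higher and 401 lower. DESeq2 called 817 genes in the same design, limma-voom 0, and limma on log2 FPKM 1 gene. Without day 1 replicate 1, edgeR called 885 of 15784 genes, 763 higher (4.83%) and 122 lower (0.773%). Of the 763, 358 were at least 2-fold higher in all 3 libraries and 405 in replicates 2 and 3 alone, and of the 122, 52 and 70 were lower in that way. Counts of list members below carry no set test. They are to be read beside the shares of all tested genes called, 4.83% higher and 0.773% lower. Counts in a 2-fold class are to be read beside the class shares above. "Rose" and "fell" are used below only for genes called by that second fit, which rests on day 1 replicates 2 and 3, the 2 day 7 libraries and 1 control, has 2 residual degrees of freedom, and assumes that the control varies like the treated groups. Log2 fold changes are day 1 over control, and the test that a gene did or did not pass is this edgeR fit. Beside an adjusted p stands its range over the other tools, scalings and filters and over the fits that leave out a further library. Every fit in such a range leaves out day 1 replicate 1. With that library in, the smallest adjusted p of any gene in edgeR was 0.136. The p-values of the second fit carry nothing beyond the variation among its libraries, which may be technical.

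**Figure D1:**
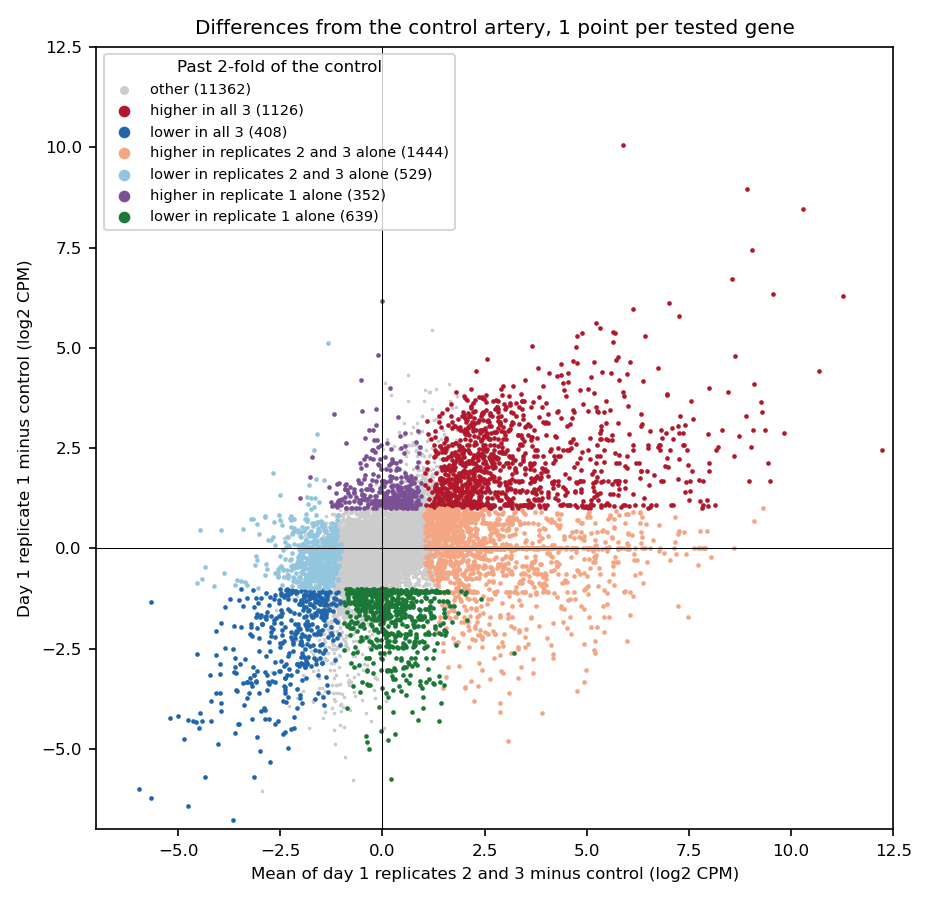
Each point is 1 of 15860 tested genes. The horizontal axis is the mean log2 CPM of day 1 replicates 2 and 3 minus the control and the vertical axis is replicate 1 minus the control, coloured by which libraries were at least 2-fold from the control. The 1126 red genes were higher in all 3 libraries, while the 1444 orange genes lie on both sides of the horizontal zero line.

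The 6 genes whose smallest difference among the 3 libraries was largest all encode secreted proteins: Ccl2, Il6, Cxcl1, Thbs1, Ccl7 and Cxcl2. Ccl2, which draws monocytes, had 66.5, 404 and 136 CPM at day 1 against 0.130 in the control. Il6, a cytokine that drives the acute-phase response, reached 61.1, 95.6 and 36.9 CPM at day 1 against 0.0649 in the control, with 2 counts in the control, and was not called by edgeR (adjusted p = 0.0848, 1.6e-05 to 0.291 over its alternatives). Thbs1, the matricellular protein thrombospondin 1 that platelets and injured smooth muscle also release, had 599.8, 3440.1 and 1318 CPM at day 1 against 5.65 in the control and rose without replicate 1 (edgeR log2 fold change 8.72 ± 1.29 SE, adjusted p = 0.0245, 2.0e-30 to 0.0433 over its alternatives). In each of these genes the lowest day 1 library was far above the control, which is how they were chosen.

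All 5 tested neutrophil-attracting CXC chemokines were at least 2-fold higher in every day 1 library, and 3 of them rose. Cxcl1 had 94.1, 462 and 176 CPM at day 1 against 0.487 in the control. Cxcl2 had 4.45, 205 and 97.3 CPM at day 1 against 0 counts in the control. That is at least 45.7-, 2100- and 999-fold higher when the control is set to 3 counts. Replicate 2 was highest and replicate 1 lowest in both. Cxcl3 had 3.36, 121 and 19.0 CPM at day 1 against 0.0649 in the control, and Cxcl6 had 1.31, 55.2 and 14.9 CPM at day 1 against 0.130 in the control, in the same order of libraries. The list median was 4.80, 9.73 and 7.28 log2 CPM above the control. The remaining member, Ppbp, a chemokine stored in platelets, had 1.41, 2.00 and 3.99 CPM at day 1 against 0.584 in the control.

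The sequence before the start of Cxcl1 and Cxcl2 is shown because the 2 chemokines and the NF-kB genes described next were high in the same libraries. The stretches are the 150 bases ending just before the RefSeq start on GRCr8, both on the minus strand, at chr14:17479322-17479471 and chr14:17467256-17467405, with capitals for matches on either strand to the NF-kB motif searched, which is GGG, any 2 bases and then TTTCC.
Cxcl1: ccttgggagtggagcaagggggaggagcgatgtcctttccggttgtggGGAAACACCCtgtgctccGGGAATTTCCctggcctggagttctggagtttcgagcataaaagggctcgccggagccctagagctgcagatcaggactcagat
Cxcl2: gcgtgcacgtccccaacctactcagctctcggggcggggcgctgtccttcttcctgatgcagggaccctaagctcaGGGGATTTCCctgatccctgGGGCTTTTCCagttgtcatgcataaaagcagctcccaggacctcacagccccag
Each holds 2 matches, beginning 102 and 84 bases before the start in Cxcl1 and 74 and 54 bases before it in Cxcl2. The window counted ran from 250 bases before to 50 after the start. There 3 of 4 CXC chemokines and 6 of 13 NF-kB genes that matched a RefSeq promoter held this motif. The share was 1.81% over the tested genes matched by symbol and 1.53% over all 33469 promoters. The shares were lower in other lists high in these libraries, with 2 of 18 CC and other chemokines (11.1%) and 2 of 12 cytokines (16.7%). A match describes letters and is not evidence of binding.

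Most NF-kB genes were higher in all 3 libraries. Of 15 subunits and inhibitors, 9 were at least 2-fold higher in every day 1 library, 2 in replicates 2 and 3 alone, and 7 rose. Relb, a subunit of the non-canonical dimer, had 40.4, 46.9 and 35.9 CPM at day 1 against 4.48 in the control (edgeR log2 fold change 3.21 ± 0.38 SE, adjusted p = 0.0097, 6.4e-12 to 0.0478 over its alternatives). The 3 day 1 values of Relb lay within a narrow range, well above the control. Bcl3, a nuclear partner of p50, rose with 31.6, 72.6 and 59.3 CPM at day 1 against 7.66 in the control. Tnfaip3, the A20 enzyme that ends NF-kB signalling, rose with 59.5, 274 and 197 CPM at day 1 against 16.9 in the control. Nfkbiz, an inducible IkB protein, had 116, 215 and 318 CPM at day 1 against 16.4 in the control without passing the test. The median difference was 1.08, 2.65 and 2.27 log2 CPM.

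Feedback genes of other pathways were high as well. Socs3, which blocks signalling of the interleukin 6 receptor, had 222, 441 and 446 CPM at day 1 against 8.08 in the control (edgeR log2 fold change 5.78 ± 0.71 SE, adjusted p = 0.0115, 1.1e-23 to 0.0433 over its alternatives). Socs1, a relative, rose with 5.70, 17.6 and 8.76 CPM at day 1 against 0.552 in the control. Cish, another inhibitor of cytokine receptors, rose with 2.79, 9.83 and 7.5 CPM at day 1 against 0.942 in the control. Of 11 JAK-STAT genes, 4 were at least 2-fold higher in all 3 libraries, 2 in replicates 2 and 3 alone, and 4 rose. Socs2, an inhibitor of growth hormone signalling chosen after its values were seen, was at least 2-fold lower in replicates 2 and 3, with 47.1, 35.1 and 35.1 CPM at day 1 against 93.4 in the control. Among 16 MAP kinase phosphatases and Sprouty genes, 3 were at least 2-fold higher in every library. Dusp2 rose with 3.84, 85.8 and 37.6 CPM at day 1 against 0.877 in the control. Dusp6, which dephosphorylates ERK, rose with 155, 116 and 200.4 CPM at day 1 against 32.7 in the control, and replicate 1 stood between the others. Dusp5 had 9.83, 88.8 and 39.9 CPM at day 1 against 1.43 in the control without passing the test.

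Of 22 AP-1 and other early response factors, 12 were at least 2-fold higher in all 3 libraries, against 7.10% of all genes. Of them 1 rose, beside 4.83% of all genes called higher. It was Klf4, a factor of smooth muscle state, with 177, 259.9 and 286 CPM at day 1 against 51.8 in the control. The day 1 libraries differed widely here. Fos, a subunit of AP-1, had 1544, 167 and 2064 CPM at day 1 against 46.5 in the control. Fosb had 873, 406 and 1802 CPM at day 1 against 44.5 in the control, and replicate 2 was lowest in both. Egr2, a zinc finger factor, had 35.0, 40.0 and 94.9 CPM at day 1 against 1.75 in the control. Fosl1 had the opposite order, with 63.8, 109 and 28.3 CPM at day 1 against 4.97 in the control and its peak in replicate 2. The list median was 2.36, 1.74 and 2.41 log2 CPM, with replicate 1 close to replicate 3.

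Acute-phase genes formed a similar group, with 9 of 17 at least 2-fold higher in all 3 libraries, 2 in replicates 2 and 3 alone, and 4 that rose. Ptx3, a secreted pattern recognition protein, had 39.4, 32.8 and 17.9 CPM at day 1 against 1.69 in the control (edgeR log2 fold change 3.91 ± 0.58 SE, adjusted p = 0.0176, 2.5e-09 to 0.0744 over its alternatives). Here replicate 1 was highest. S100a8 and S100a9 encode the calprotectin subunits of neutrophils. S100a8 had 2.53, 3.30 and 7.70 CPM at day 1 against 0.0649 in the control. S100a9 had 9.83, 17.3 and 34.1 CPM at day 1 against 0.617 in the control, and neither passed the test.

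Cytokines were mostly lower in replicate 1 than in the other day 1 libraries. Of 16 tested, 8 were at least 2-fold higher in all 3 libraries, 4 in replicates 2 and 3 alone, and 5 rose. Il1b had 3.62, 166 and 97.3 CPM at day 1 against 0.455 in the control and rose. Its antagonist Il1rn had 4.96, 482 and 125 CPM at day 1 against 0.455 in the control. Il1a, the other interleukin 1 agonist, rose with 0.0640, 35.4 and 13.6 CPM at day 1 against 0.0325 in the control, and its level in replicate 1 came from few counts. Il11, a relative of Il6, had 2.24, 4.87 and 1.77 CPM at day 1 against 0.779 in the control. The median over the list was 1.18, 6.23 and 3.91 log2 CPM, and 1.02, 6.01 and 3.91 with the 2 members at 0 in the control set to 3 counts.

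Most CC and other chemokines were lower in replicate 1 than in the other day 1 libraries, though Ccl2, described above, was far above the control in it. Of 22 CC and other chemokines, 10 were at least 2-fold higher in all 3 libraries and 8 in replicates 2 and 3 alone, and 6 rose. Ccl7, a monocyte chemoattractant related to Ccl2, had 4.58, 64.3 and 28.7 CPM at day 1 against 0 counts in the control. That is at least 47-, 660- and 295-fold higher against 3 control counts. Ccl3, a product of macrophages, rose with 0.160, 14.6 and 14.4 CPM at day 1 against 0 counts in the control. Ccl4, a related chemokine, rose with 0.128, 14.7 and 2.96 CPM at day 1 against 0 counts in the control. In replicate 1 both rest on a few counts and were at least 1.64- and 1.31-fold above 3 control counts for Ccl3 and Ccl4. In all, 8 of the 22 chemokines were at 0 in the control. The list medians were 0.50, 4.88 and 3.25 log2 CPM, and 0.39, 4.49 and 3.14 with those 8 set to 3 counts.

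Genes of cell division were higher by similar amounts in every day 1 library. Of 36 mitosis genes, 34 were at least 2-fold higher in all 3 libraries and 14 rose. Replicate 1, which was near or below the control for most monocyte and macrophage markers, had the highest median, with 2.88, 2.29 and 2.31 log2 CPM in replicates 1 to 3. Ccnb2, a mitotic cyclin, had 8.52, 6.60 and 7.31 CPM at day 1 against 0.357 in the control (edgeR log2 fold change 4.27 ± 0.63 SE, adjusted p = 0.0176, 1.3e-07 to 0.083 over its alternatives). Ccnb1, the other B cyclin, rose with 19.0, 16.2 and 13.6 CPM at day 1 against 1.49 in the control. Birc5, a subunit of the chromosomal passenger complex, rose with 4.93, 7.80 and 5.83 CPM at day 1 against 0.519 in the control. The proliferation marker Mki67 rose with 57.2, 62.8 and 58.5 CPM at day 1 against 6.75 in the control, and its 3 day 1 values differed by little. The 2 members that missed 2-fold in a library, named after their values were seen, were Cdc20 and the kinesin Kif20a. Cdc20, which activates the anaphase-promoting complex, had 21.0, 8.39 and 7.86 CPM at day 1 against 4.09 in the control. Kif20a had 31.6, 13.6 and 17.2 CPM at day 1 against 9.48 in the control.

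Genes of DNA replication differed less. Of 30 tested, 12 were at least 2-fold higher in all 3 libraries, 4 in replicates 2 and 3 alone, and 7 rose, with medians of 0.72, 1.04 and 1.29 log2 CPM. Rrm2, a ribonucleotide reductase subunit, rose with 16.1, 15.7 and 18.2 CPM at day 1 against 1.79 in the control. Uhrf1, which maintains DNA methylation, rose with 12.2, 13.4 and 13.4 CPM at day 1 against 1.56 in the control. Gins1, part of the replicative helicase, rose with 1.89, 3.18 and 3.45 CPM at day 1 against 0.162 in the control. Cdc6, a licensing factor, had 1.70, 3.76 and 3.32 CPM at day 1 against 0.325 in the control. Of 21 D cyclins, Cdk inhibitors and E2F genes, 7 were at least 2-fold higher in every library. Myc, a growth regulator, had 59.6, 99.5 and 59.2 CPM at day 1 against 5.10 in the control. The repressor E2f7 had 7.46, 5.21 and 3.28 CPM at day 1 against 0.942 in the control, and its relative E2f8 had 4.32, 4.32 and 3.22 CPM at day 1 against 0.455 in the control. Cdkn2b, a Cdk4 inhibitor, rose with 0.704, 5.33 and 3.80 CPM at day 1 against 0.195 in the control.

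Promoter sequences of 2 mitosis genes are shown because nearly the whole group was higher in all 3 libraries. They are the 150 bases ending before the RefSeq start on GRCr8, Ccnb2 on the minus strand at chr8:79981659-79981808 and Prc1, which bundles microtubules, on the plus strand at chr1:143659331-143659480. Capitals mark TTTGAA, the cell cycle homology region or CHR, and CCAAT, each on either strand.
Ccnb2: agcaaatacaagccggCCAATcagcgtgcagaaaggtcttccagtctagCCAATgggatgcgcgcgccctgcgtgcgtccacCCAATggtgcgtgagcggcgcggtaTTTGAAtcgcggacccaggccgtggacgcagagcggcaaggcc
Prc1: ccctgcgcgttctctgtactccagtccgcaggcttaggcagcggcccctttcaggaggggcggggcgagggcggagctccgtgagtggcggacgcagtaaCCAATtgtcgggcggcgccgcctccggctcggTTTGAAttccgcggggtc
The TTTGAA match begins 43 bases before the start in Ccnb2 and 18 bases before it in Prc1. Ccnb2 holds 3 CCAAT matches, 134, 101 and 68 bases before the start, and Prc1 holds 1 in this stretch, 50 bases before it. From 250 bases before to 50 after the start, 22 of 31 matched mitosis genes held TTTGAA (71.0%). So did 2 of 25 DNA replication genes (8%) and 4 of 13 monocyte and macrophage markers (30.8%). The share was 12.2% over the tested genes matched by symbol and 18.3% over all promoters. CCAAT was found in 24 of 31 mitosis and 17 of 25 DNA replication genes, against 37.1% of the matched tested genes and 37.5% of all promoters. Prc1, named for this sequence, had 90.7, 58.0 and 50.6 CPM at day 1 against 8.70 in the control and rose.

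Among adhesion and prostanoid genes, Vcam1 and Ptgs2 had similar levels in all 3 day 1 libraries. Vcam1, which holds leukocytes on activated endothelium, had 519, 422 and 578 CPM at day 1 against 86.6 in the control (edgeR log2 fold change 2.53 ± 0.38 SE, adjusted p = 0.0181, 1.6e-10 to 0.0433 over its alternatives). Ptgs2, the inducible prostaglandin synthase, rose with 227, 159 and 159 CPM at day 1 against 18.3 in the control. Cd44, the hyaluronan receptor, rose with 323, 1149 and 485 CPM at day 1 against 29.6 in the control. Replicate 1 was as high as the others in Vcam1 and highest in Ptgs2. Sele, an endothelial selectin, rose with 0.0640, 8.94 and 3.54 CPM at day 1 against 0.130 in the control. Pecam1, an adhesion molecule of endothelium and leukocytes, had 11.8, 115 and 23.7 CPM at day 1 against 169 in the control. Ptger2, a receptor of prostaglandin E2, rose with 0.800, 16.8 and 7.83 CPM at day 1 against 0.260 in the control. In 2 leukocyte genes of eicosanoid synthesis replicate 1 was near the control. Tbxas1, thromboxane synthase, rose with 0.544, 63.5 and 48.7 CPM at day 1 against 0.682 in the control. Alox5ap, which serves leukotriene synthesis, rose with 1.41, 15.6 and 13.6 CPM at day 1 against 1.40 in the control.

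Both activators and inhibitors of plasmin formation were among the higher genes. Of 25 tested, 7 were at least 2-fold higher in all 3 libraries, 3 in replicates 2 and 3 alone, 2 at least 2-fold lower in all 3, and 6 rose. Plaur, the urokinase receptor, had 73.1, 394 and 125 CPM at day 1 against 3.96 in the control (edgeR log2 fold change 6.03 ± 0.92 SE, adjusted p = 0.0262, 2.7e-18 to 0.0609 over its alternatives). Plau, urokinase, rose with 7.11, 216 and 68.3 CPM at day 1 against 1.01 in the control. Replicate 2 was highest in both. Tfpi2, a matrix-bound protease inhibitor, rose with 37.8, 116 and 41.8 CPM at day 1 against 0.487 in the control. Serpinb2, an inhibitor of urokinase, rose with 5.99, 6.54 and 3.16 CPM at day 1 against 0.0649 in the control. Plat, tissue plasminogen activator, had 311, 439.8 and 273 CPM at day 1 against 117 in the control. Vwf, the carrier of clotting factor VIII made by endothelium, was one of the 2 lower genes, with 65.1, 262 and 72.8 CPM at day 1 against 721 in the control. Plg, plasminogen itself, was the other, with 0.480, 0.339 and 1.03 CPM at day 1 against 2.40 in the control.

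Matricellular proteins sit in the matrix without forming its fibres. Of 21 tested, 5 were at least 2-fold higher in all 3 libraries, 6 in replicates 2 and 3 alone, and 6 rose. Tnc, tenascin C of healing wounds, had 64.8, 1182 and 533 CPM at day 1 against 8.51 in the control (edgeR log2 fold change 6.66 ± 1.02 SE, adjusted p = 0.0246, 2.1e-21 to 0.0433 over its alternatives). Spp1, osteopontin, rose with 1127, 6315 and 6387 CPM at day 1 against 484 in the control. Replicate 1 lay above the control but below the others in both. Tnn, tenascin W, rose with 0.576, 205 and 198 CPM at day 1 against 0.260 in the control. Thbs4, a thrombospondin, rose with 0.192, 89.8 and 30.4 CPM at day 1 against 1.40 in the control. Both were counted as higher in replicates 2 and 3 alone. The hyaluronan-binding protein Tnfaip6 had 144, 259 and 104 CPM at day 1 against 6.95 in the control. The hyaluronan synthase Has2 rose with 0.608, 78.5 and 30.1 CPM at day 1 against 0.552 in the control, and its level in replicate 1 was close to the control.

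Of 26 metalloproteinases and inhibitors, 8 were at least 2-fold higher in all 3 libraries, 5 in replicates 2 and 3 alone and 1 at least 2-fold lower in all 3. The lower one was Timp4, an inhibitor, with 11.2, 4.53 and 19.5 CPM at day 1 against 41.6 in the control. Timp1, another inhibitor, rose with 186, 284 and 149.7 CPM at day 1 against 40.4 in the control. Mmp12, the elastase of macrophages, had 0.256, 556 and 134 CPM at day 1 against 0 counts in the control. That is at least 2.63-, 5700- and 1370-fold higher against 3 control counts, without passing the test. Mmp9, a gelatinase, had 0.800, 86.9 and 39.6 CPM at day 1 against 0.260 in the control, also without passing it. Mmp3, stromelysin, rose with 0.192, 4.04 and 2.42 CPM at day 1 against 0 counts in the control. Mmp13, a collagenase, rose with 0, 4.22 and 5.51 CPM at day 1 against 0 counts in the control.

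Oxidative and protein stress genes were higher in part. Of 19 Nrf2 targets and metallothioneins, 6 were at least 2-fold higher in all 3 libraries and 1 rose. Of 21 integrated stress response genes, 5 were at least 2-fold higher in all 3 and 1 rose. Beside these counts stand 7.10% of all genes in that class and 4.83% called higher. Hmox1, which degrades haem, had 76.5, 376 and 149 CPM at day 1 against 3.70 in the control (edgeR log2 fold change 6.15 ± 0.83 SE, adjusted p = 0.0167, 7.7e-22 to 0.0504 over its alternatives). Sod2, the mitochondrial superoxide dismutase, rose with 446, 587 and 412 CPM at day 1 against 91.1 in the control. Srxn1, a target of Nrf2, had 21.9, 138 and 56.6 CPM at day 1 against 4.68 in the control without passing the test. In the metallothionein Mt2A replicate 1 was highest, with 339.6, 173 and 251 CPM at day 1 against 33.7 in the control. Of 15 cytosolic heat shock genes, 3 were at least 2-fold higher in all 3 libraries and 1 rose. Hspb8, a small chaperone, rose with 24.4, 69.6 and 31.8 CPM at day 1 against 3.73 in the control. Hspa1a, inducible Hsp70, had 80.7, 40.3 and 23.2 CPM at day 1 against 8.51 in the control. Dnaja1, its partner, had 111, 145 and 109.8 CPM at day 1 against 51.4 in the control. Gadd45b, an early stress gene, rose with 37.8, 50.6 and 38.8 CPM at day 1 against 4.35 in the control. Of 20 p53 targets and Bcl2 family genes, 3 rose, the survival genes Birc3 and Bcl2a1, which are NF-kB targets, and Bcl2l11, which promotes cell death. Birc3 had 43.5, 88.5 and 75.1 CPM at day 1 against 4.90 in the control. Bcl2a1 had 0.384, 50.9 and 28.4 CPM at day 1 against 0 counts in the control, at least 3.94-, 523- and 292-fold above 3 control counts.

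Transcripts of blood cells were not equal among the libraries. Of 11 red cell markers, 9 were at least 2-fold higher in all 3 libraries, with medians of 3.34, 2.24 and 2.16 log2 CPM. Alas2, the first enzyme of haem synthesis in red cells, had 79.2, 45.0 and 39.9 CPM at day 1 against 7.76 in the control. Hbb, a beta globin, had 2146, 1189 and 1133 CPM at day 1 against 217 in the control, and its counts are uncertain because near-identical globin genes share reads. Replicate 1 was highest in both. Of 15 neutrophil markers, 11 were at least 2-fold higher in all 3 libraries and 4 rose. Csf3r, the receptor of granulocyte colony-stimulating factor, had 4.39, 23.5 and 25.8 CPM at day 1 against 0.325 in the control (edgeR log2 fold change 6.23 ± 0.80 SE, adjusted p = 0.0119, 2.4e-14 to 0.0892 over its alternatives). Itgb2, an integrin chain of all leukocytes, rose with 4, 537 and 187 CPM at day 1 against 1.69 in the control. Of 11 platelet markers, replicate 3 was at least 2-fold above the control for 10, replicate 2 for 2 and replicate 1 for 1. Gp6, the platelet collagen receptor, had 4.61, 9.34 and 18.2 CPM at day 1 against 3.15 in the control.

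Fewer genes were lower in all 3 libraries than higher. Cytl1, a small secreted cytokine-like protein, had 27.3, 46.2 and 19.2 CPM at day 1 against 545 in the control (edgeR log2 fold change -4.06 ± 0.76 SE, adjusted p = 0.0453, 1.7e-07 to 0.0933 over its alternatives). Aldh3a1, an aldehyde dehydrogenase, fell with 3.39, 2.84 and 3.06 CPM at day 1 against 26.9 in the control (edgeR log2 fold change -3.19 ± 0.51 SE, adjusted p = 0.0245, 2.0e-06 to 0.122 over its alternatives). The day 1 values of Aldh3a1 lay close together. Smpd3, a neutral sphingomyelinase, had 3.71, 5.52 and 5.60 CPM at day 1 against 45.7 in the control. Bmp6, a bone morphogenetic protein, had 4.45, 9.65 and 1.77 CPM at day 1 against 65.6 in the control. Pkhd1l1 had 6.76, 22.5 and 6.96 CPM at day 1 against 143 in the control, and none of these 3 passed the test. Rplp2, a ribosomal stalk protein with near-identical copies that make its counts uncertain, had 1.25, 1.20 and 4.25 CPM at day 1 against 38.1 in the control. In all 6 genes the highest day 1 library was below the control, which their class requires.

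Other lower genes belonged to lists that were otherwise mixed. In the TGF-beta, activin and BMP list, Smad6, which inhibits BMP signalling and was named after its values were seen, fell with 23.0, 19.98 and 19.9 CPM at day 1 against 56.5 in the control. Its 3 day 1 values were close together. In the Notch list Heyl, a Notch target of vascular smooth muscle, had 65.7, 49.7 and 115 CPM at day 1 against 343 in the control. Of 14 adventitial fibroblast markers, 3 were at least 2-fold lower and 1 at least 2-fold higher in all 3 libraries, and 2 were higher in replicates 2 and 3 alone, with medians of -1.05, 0.07 and -0.18 log2 CPM. Smoc2, a matricellular protein, was the one higher in all 3 and rose with 88.3, 147 and 114 CPM at day 1 against 21.7 in the control. Among the lower ones, Scara5, a ferritin receptor, fell with 16.9, 32.1 and 35.7 CPM at day 1 against 100.2 in the control. Clec3b had 14.3, 34.7 and 21.1 CPM at day 1 against 75.6 in the control. The actin-severing Gsn had 585, 586 and 694 CPM at day 1 against 1413 in the control. These 3 were below the control in every day 1 library. The ribosome biogenesis gene Nhp2 fell with 0.320, 0.493 and 0.193 CPM at day 1 against 8.34 in the control, while no other of the 24 members was at least 2-fold lower in all 3 libraries. Sox10, a Schwann cell factor, had 0, 0.0617 and 0 CPM at day 1 against 0.422 in the control. These levels rest on few counts, and Sox10 did not pass the test. Gap43 and Erbb3 of the same list, described below, rose. Ncam1, an adhesion molecule named after its values were seen, had 110.0, 120.4 and 132 CPM at day 1 against 117 in the control, which lay on both sides of the control.

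**Figure D2:**
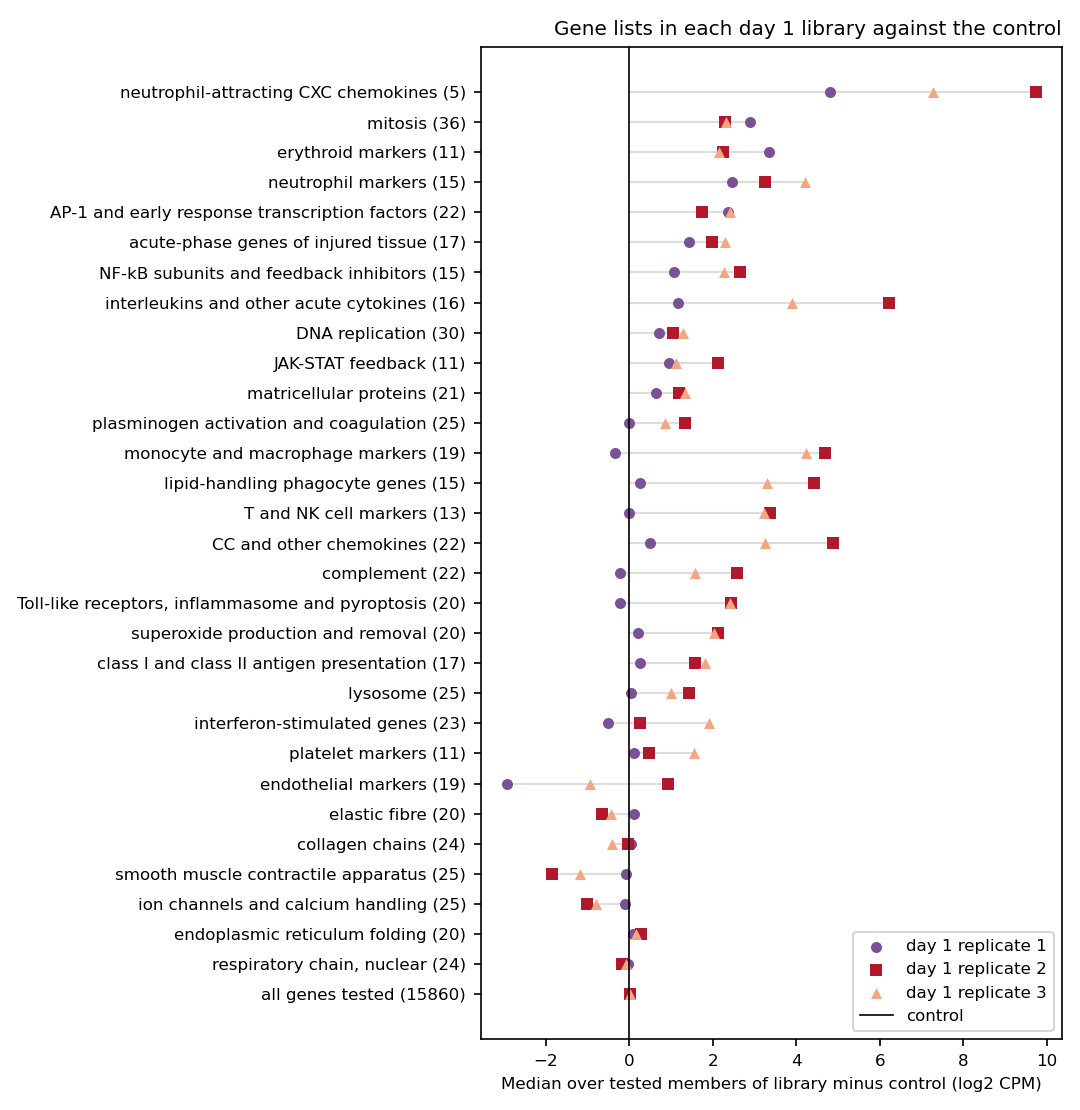
Each row is a gene list with its number of tested members, and the horizontal axis is the median over the members of day 1 library minus control in log2 CPM, with the control at the zero line. Mitosis genes sit at 2.88, 2.29 and 2.31 in replicates 1, 2 and 3, while macrophage markers sit at -0.33, 4.68 and 4.25.

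Most markers of monocytes and macrophages were high in replicates 2 and 3 and near or below the control in replicate 1. Of 19 tested, 14 were at least 2-fold higher in replicates 2 and 3 alone, 3 in all 3 libraries, and 14 rose. Cd68, a lysosomal membrane protein of macrophages, had 1.47, 262 and 142 CPM at day 1 against 1.10 in the control (edgeR log2 fold change 7.51 ± 0.77 SE, adjusted p = 0.00806, 6.8e-34 to 0.0501 over its alternatives). The fractalkine receptor Cx3cr1 had 0, 14.3 and 12.9 CPM at day 1 against 0 counts in the control. Of the 3 that were higher in replicate 1 too, Itgam, an integrin chain of myeloid cells, had 1.44, 301 and 132 CPM at day 1 against 0.649 in the control. Lyz2, lysozyme, had 27.5, 4731 and 1902 CPM at day 1 against 13.1 in the control, with replicate 1 much nearer to the control than to the others. The list medians were -0.33, 4.68 and 4.25 log2 CPM. The 2 members in no class were named after their values were seen. Cd163, a haemoglobin scavenger receptor of macrophages, had 0.832, 7 and 2.80 CPM at day 1 against 9.16 in the control. Ms4a7 had 4.42, 4.59 and 6.86 CPM at day 1 against 2.76 in the control.

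The lipid-handling phagocyte genes followed the same libraries. Of 15 tested, 9 were at least 2-fold higher in replicates 2 and 3 alone, 3 in all 3, and 9 rose. Gpnmb, a glycoprotein of phagocytes that digest lipid, had 12.2, 3301 and 1663 CPM at day 1 against 13.5 in the control (edgeR log2 fold change 7.52 ± 0.85 SE, adjusted p = 0.00931, 3.0e-39 to 0.0253 over its alternatives). Trem2, a receptor for lipids and dead cells, rose with 0.160, 96.0 and 45.2 CPM at day 1 against 0.195 in the control. Apoe, a lipid carrier, rose with 61.9, 3988 and 1723 CPM at day 1 against 33.2 in the control. Olr1, a receptor of oxidized lipoprotein, rose with 8.97, 172 and 58.4 CPM at day 1 against 1.75 in the control and was at least 2-fold higher in replicate 1 too. Of 25 lysosomal genes, 12 were at least 2-fold higher in replicates 2 and 3 alone, 1 in all 3, and 3 rose, namely the protease Lgmn and the cathepsins Ctss and Ctsz. Ctss had 2.95, 225 and 156 CPM at day 1 against 5.88 in the control. Ctsz had 1.89, 248 and 144 CPM at day 1 against 4.12 in the control.

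Innate receptors and the oxidase of phagocytes were high mainly in the same libraries. Of 20 Toll-like receptor and inflammasome genes, 9 were at least 2-fold higher in replicates 2 and 3 alone, 5 in all 3, and 10 rose. Nlrp3, an inflammasome sensor, had 0.512, 32.5 and 23.8 CPM at day 1 against 0.455 in the control (edgeR log2 fold change 5.94 ± 0.52 SE, adjusted p = 0.00605, 2.2e-21 to 0.0576 over its alternatives). Nlrc4, another, rose with 0.576, 18.9 and 11.6 CPM at day 1 against 0.130 in the control. Of 20 superoxide genes, 7 were at least 2-fold higher in replicates 2 and 3 alone, 3 in all 3, and 8 rose. Cybb, the catalytic chain of the phagocyte oxidase, rose with 0.416, 271 and 137 CPM at day 1 against 1.23 in the control. Its cytosolic partner Ncf4 rose with 0.704, 51.3 and 34.6 CPM at day 1 against 0.552 in the control. Nos2, inducible nitric oxide synthase, had 0.832, 69.6 and 30.1 CPM at day 1 against 0.0974 in the control without passing the test. The macrophage marker sums given above moved with these lists, and their part in the result was not tested.

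Complement and antigen presentation genes were split as well. Of 22 complement genes, 12 were at least 2-fold higher in replicates 2 and 3 alone, 2 in all 3, 1 at least 2-fold lower in all 3, and 6 rose. C5ar1, the receptor of the C5a fragment, had 0.768, 121 and 74.9 CPM at day 1 against 0.812 in the control (edgeR log2 fold change 6.91 ± 0.54 SE, adjusted p = 0.00583, 2.5e-36 to 0.0434 over its alternatives). C3 had 1.15, 22.6 and 35.2 CPM at day 1 against 0.260 in the control and rose. The lower gene, named after its values were seen, was Cfb, a protease of the alternative pathway, which fell with 7.97, 17.2 and 19.9 CPM at day 1 against 53.4 in the control. Of 17 class I and class II genes, 7 were at least 2-fold higher in replicates 2 and 3 alone, 6 in all 3, and 9 rose. Cd74, the class II invariant chain, rose with 4.32, 315 and 147 CPM at day 1 against 0.292 in the control. RT1-Da, a class II chain whose relatives may share its reads, rose with 1.18, 124 and 72.4 CPM at day 1 against 0 counts in the control. That is at least 12.2-, 1270- and 743-fold above 3 control counts.

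Lymphocyte markers were low, with a summed level of 5.16, 105 and 41.9 CPM at day 1 against 7.18 in the control. Of 13 T and NK cell markers, 7 were at least 2-fold higher in replicates 2 and 3 alone and 6 in all 3, yet 8 of them were at 0 in the control. Cd2, an adhesion molecule of these cells, rose with 0, 5.21 and 4.15 CPM at day 1 against 0 counts in the control. Cd8a, of cytotoxic T cells, rose with 0.224, 6.17 and 4.77 CPM at day 1 against 0.455 in the control. The median over the list was 0, 3.37 and 3.24 log2 CPM, or -0.02, 3.20 and 2.75 with genes at 0 set to 3 counts. Flt3, a receptor of dendritic cell precursors, rose with 0.0640, 8.69 and 7.18 CPM at day 1 against 0 counts in the control.

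Interferon-stimulated genes separated the day 1 libraries further. Replicate 3 was at least 2-fold above the control for 20 of 23 members, replicate 2 for 6 and replicate 1 for 1, while replicate 1 was at least 2-fold below it for 7. Ifit3, an antiviral protein, rose with 7.2, 32.7 and 53.6 CPM at day 1 against 3.83 in the control. Oasl, another, rose with 1.70, 49.6 and 29.1 CPM at day 1 against 1.27 in the control. Gbp2, a guanylate-binding protein, rose with 5.64, 37.9 and 44.9 CPM at day 1 against 9.51 in the control, with replicate 1 below the control. The median difference was -0.51, 0.27 and 1.91 log2 CPM in replicates 1 to 3.

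Collagen genes were mixed. Of 24 tested, 7 were at least 2-fold higher in replicates 2 and 3 alone, 2 at least 2-fold lower there, and 1 was higher in all 3. The shares of all genes in these classes were 9.10%, 3.34% and 7.10%. Only 1 of the 24 rose, beside 4.83% of all genes called higher. This was Col5a3, a minor fibrillar chain, with 10.9, 401 and 181 CPM at day 1 against 26.6 in the control. Col12a1, a fibril-associated chain, had 53.8, 953 and 480.5 CPM at day 1 against 47.2 in the control. Col8a1, a short chain of remodelling arteries, had 8.81, 354 and 165 CPM at day 1 against 19.6 in the control. Both exceeded the control only in replicates 2 and 3 by 2-fold, without passing the test. Col1a1, the main fibrillar chain, had 8403, 12081 and 10652 CPM at day 1 against 13526 in the control, all 3 below the control by less than 2-fold. Cartilage-type genes went both ways. Of 18 tested, 4 were at least 2-fold higher and 2 at least 2-fold lower in all 3 libraries, and 3 were higher and 1 lower in replicates 2 and 3 alone. Their medians were 0.14, -0.23 and 0.23 log2 CPM and their summed level was 2127, 857 and 1472 CPM at day 1 against 2949 in the control. Cytl1, described above, was one of the lower genes. The higher ones included Acan, the aggregating proteoglycan, with 3.20, 158 and 135 CPM at day 1 against 1.56 in the control. Sox9, a factor of cartilage formation, rose with 2.63, 13.3 and 7.12 CPM at day 1 against 0.195 in the control. Runx2, a factor of bone formation, rose with 0.704, 17.6 and 9.53 CPM at day 1 against 0.682 in the control.

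Contractile genes of smooth muscle were lower in replicates 2 and 3 and near the control in replicate 1. Of 25 tested, 14 were at least 2-fold lower in replicates 2 and 3 alone, none in all 3, and 3 fell. Kcnmb1, the beta subunit of the large calcium-activated potassium channel, had 743, 182 and 248 CPM at day 1 against 784 in the control (edgeR log2 fold change -1.87 ± 0.35 SE, adjusted p = 0.0364, 5.1e-05 to 0.139 over its alternatives). Replicate 1 of Kcnmb1 was close to the control and the others were far below it. Acta2, smooth muscle actin, had 12644, 2613 and 2909 CPM at day 1 against 9324 in the control. Cnn1, calponin, had 1486, 307 and 411 CPM at day 1 against 1063 in the control. Actg2, the enteric-type smooth muscle actin, had 974, 147 and 203 CPM at day 1 against 677 in the control. In these 3 genes replicate 1 was above the control, and none passed the test. The other genes that fell, Pdlim3 and the calcium store protein Casq2, were named after their values were seen. Pdlim3 had 438, 100.5 and 174 CPM at day 1 against 511 in the control. Casq2 had 469, 84.2 and 144 CPM at day 1 against 432 in the control. List medians were -0.07, -1.83 and -1.17 log2 CPM, with replicate 2 lowest. Macrophage transcripts were high in the same 2 libraries, and their part in this difference was not tested.

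Ion channels and elastic fibre genes had members in most classes. Of 25 channel genes, 3 were at least 2-fold lower in replicates 2 and 3 alone, while replicate 2 by itself was at least 2-fold lower for 14. Kcna5, a voltage-gated potassium channel, was at least 2-fold lower in all 3 with 3.04, 0.586 and 1.80 CPM at day 1 against 11.9 in the control. Trpc6, a cation channel, was at least 2-fold higher in all 3 with 22.1, 25.6 and 19.96 CPM at day 1 against 5.84 in the control. Kcnn4, a potassium channel of leukocytes and dividing smooth muscle, rose with 2.08, 139 and 57.6 CPM at day 1 against 8.73 in the control. Piezo1, a mechanosensitive channel, had 40.6, 365 and 144 CPM at day 1 against 32.1 in the control. In both, replicate 2 was highest. Eln, elastin and the most abundant transcript of the control, had 74129, 17555 and 15264 CPM at day 1 against 56515 in the control and did not pass the test. Fbn2, a fibrillin of growing tissue, had 0.256, 33.3 and 9.76 CPM at day 1 against 0.227 in the control. Ednrb, an endothelin receptor, was higher in every library with 7.27, 102 and 27.2 CPM at day 1 against 1.49 in the control and rose.

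**Figure D3:**
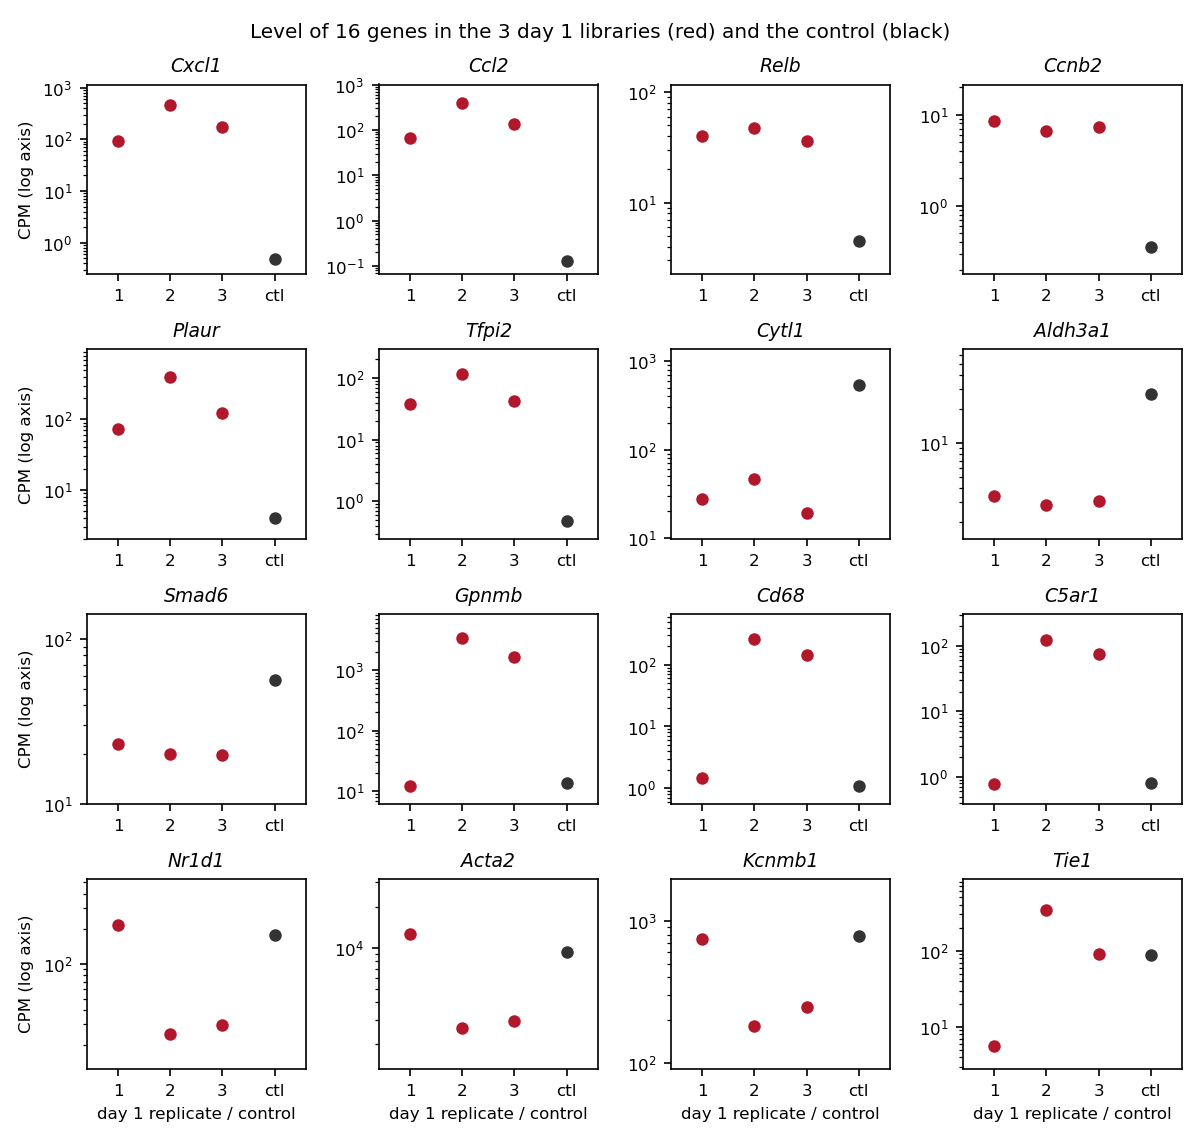
Levels of 16 genes in CPM on a log axis whose range differs by gene, with day 1 replicates 1, 2 and 3 in red left of the control in black. Cxcl1, Ccl2, Relb, Ccnb2, Plaur and Tfpi2 were above the control in all 3 libraries and Cytl1, Aldh3a1 and Smad6 below it, while Gpnmb, Cd68, C5ar1, Nr1d1, Acta2 and Kcnmb1 differed by 2-fold in replicates 2 and 3 alone. Tie1 was at least 2-fold below the control in replicate 1 alone, while replicate 2 lay 1.96 log2 CPM above the control.

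Muscle and metabolic genes lower in replicates 2 and 3 alone were led by Ckm, muscle creatine kinase, with 23.8, 1.45 and 2.29 CPM at day 1 against 40.2 in the control. Slc2a4, the insulin-regulated glucose transporter, had 128, 29.0 and 34.6 CPM at day 1 against 197 in the control (edgeR log2 fold change -2.63 ± 0.36 SE, adjusted p = 0.0146, 1.2e-07 to 0.0514 over its alternatives). Acta1, the skeletal actin, fell with 78.1, 7.58 and 7.6 CPM at day 1 against 43.8 in the control. Slc6a7, a proline transporter, fell with 46.0, 2.31 and 1.90 CPM at day 1 against 33.4 in the control. Col19a1, a collagen of basement membrane zones, fell with 61.5, 3.11 and 7.41 CPM at day 1 against 40.7 in the control. In the last 3 genes replicate 1 was above the control. The summed level of 16 skeletal muscle markers, a list that holds Ckm and Acta1, moved with these genes, at 136, 37.3 and 39.3 CPM at day 1 against 115 in the control, and its part in the result was not tested. Nr1d1, the clock repressor also called Rev-erb alpha, had 213, 24.7 and 29.7 CPM at day 1 against 175 in the control (edgeR log2 fold change -2.68 ± 0.31 SE, adjusted p = 0.00941, 5.9e-10 to 0.0433 over its alternatives). Of 17 clock genes, 4 were at least 2-fold lower in replicates 2 and 3 alone and 2 at least 2-fold higher in all 3. Hlf, an output factor, had 10.6, 4.16 and 5.67 CPM at day 1 against 16.5 in the control. Ciart, a clock repressor, had 7.4, 0.987 and 1.19 CPM at day 1 against 3.28 in the control. Bhlhe40, another repressor, was one of the higher genes with 86.8, 149.5 and 120.2 CPM at day 1 against 40.6 in the control. The time of day at collection is not given in the labels.

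Growth factor systems differed in single members. Of 25 PDGF, EGF and FGF genes 3 rose, and of 18 VEGF, angiopoietin and Tie genes 1 rose, beside 4.83% of all genes called higher. Areg, a ligand of the EGF receptor, rose with 0.416, 6.13 and 3.35 CPM at day 1 against 0 counts in the control. Ereg, another, rose with 0.128, 2.03 and 2.19 CPM at day 1 against 0 counts in the control. Angptl4, an inhibitor of lipoprotein lipase induced by low oxygen, rose with 11.7, 82.5 and 41.8 CPM at day 1 against 1.69 in the control. Replicate 2 was highest in Areg and Angptl4. Vegfa, the main angiogenic factor, had 55.0, 234 and 101 CPM at day 1 against 29.6 in the control without passing the test. Hk2, an inducible hexokinase, rose with 129.6, 230.0 and 93.5 CPM at day 1 against 18.2 in the control. It was the only 1 of 26 glycolysis and hypoxia genes that rose. The ephrin receptor Epha2 rose with 21.7, 61.7 and 25.5 CPM at day 1 against 3.12 in the control. Tgfbi, a matrix protein induced by TGF-beta, rose with 13.3, 259.6 and 222 CPM at day 1 against 23.3 in the control, with replicate 1 below the control.

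Endothelial markers went separate ways in the 3 libraries. In replicate 1, 15 of 19 were at least 2-fold lower than the control and none higher. In replicate 2, 8 were at least 2-fold higher and 1 lower, and in replicate 3, 1 was higher and 9 lower. List medians were -2.92, 0.94 and -0.93 log2 CPM, and edgeR called no member, although other tools or settings gave adjusted p-values down to 0.000389 for Kdr, 0.0101 for Cdh5 and 0.0159 for Vwf without replicate 1. Tie1, an endothelial receptor, had 5.60, 347 and 91.9 CPM at day 1 against 89.0 in the control. Cdh5, the cadherin of endothelial junctions, had 3.39, 149 and 27.8 CPM at day 1 against 18.4 in the control. In both, replicate 2 was highest and replicate 1 lowest. Kdr, the main VEGF receptor, had 1.31, 14.9 and 3.93 CPM at day 1 against 0.747 in the control. Ptprb, an endothelial phosphatase, had 23.2, 217 and 51.5 CPM at day 1 against 293 in the control. Of the 19 members, Vwf was at least 2-fold lower in all 3 libraries and Kdr at least 2-fold higher in replicates 2 and 3.

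**Figure D4:**
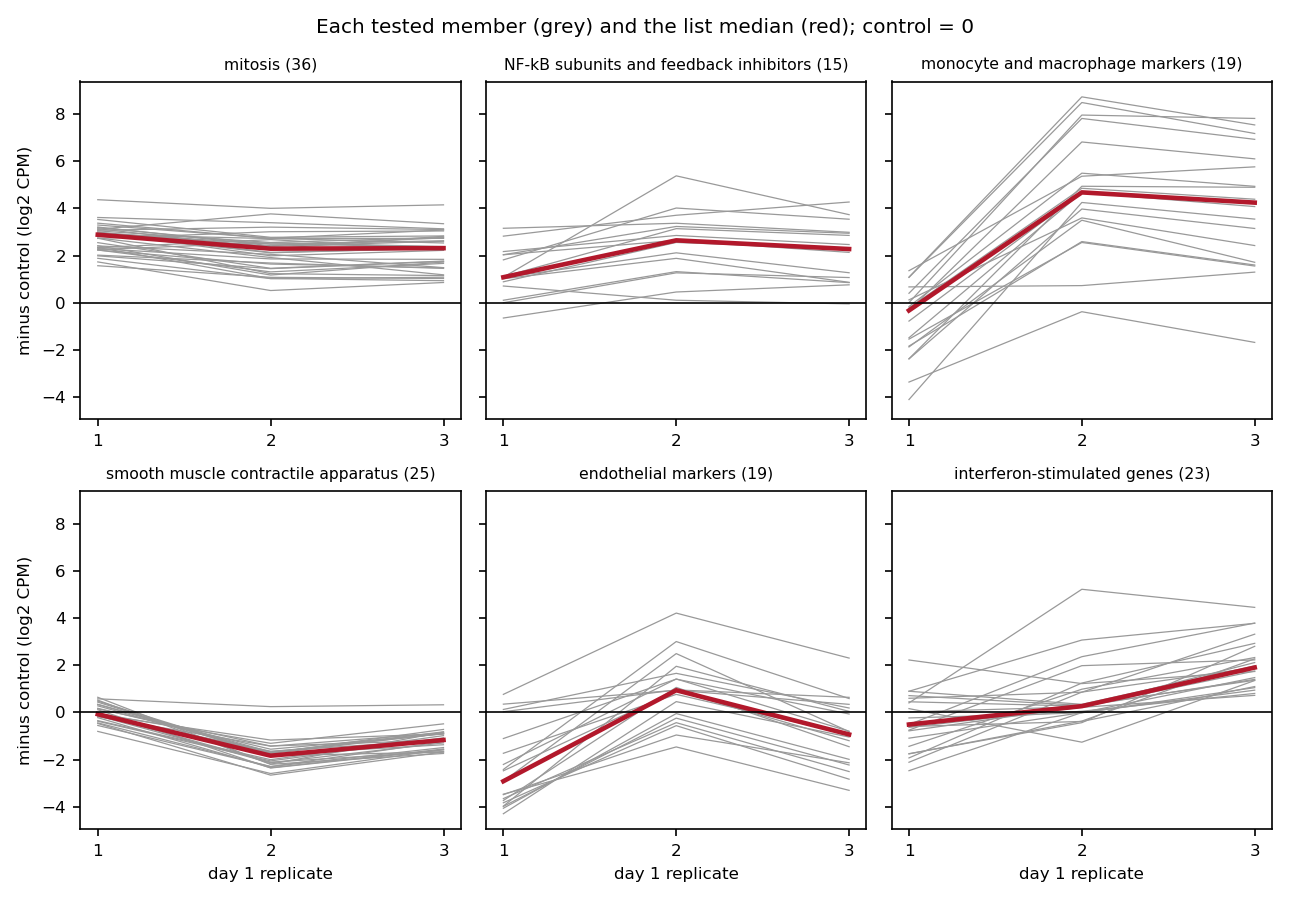
Each grey line joins the 3 day 1 values of 1 gene, as log2 CPM of the library minus the control, the red line joins the list medians, and the control is at 0. Mitosis genes lie above 0 in all 3 libraries, macrophage markers in replicates 2 and 3, and endothelial markers lie below 0 in replicate 1 for most members.

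Some differences of at least 2-fold were seen in replicate 1 and in neither other day 1 library in the same direction. Diaph3, a formin of dividing cells, had 85.0, 21.2 and 26.1 CPM at day 1 against 13.4 in the control. Nkd2, an inhibitor of Wnt signalling, had 74.3, 11.6 and 14.6 CPM at day 1 against 12.0 in the control. Cacna1d, a calcium channel, had 49.5, 11 and 13.4 CPM at day 1 against 8.34 in the control. Sphkap, an anchor of protein kinase A, had 47.8, 3.64 and 16 CPM at day 1 against 8.25 in the control. In these 4 genes replicate 1 exceeded the other 3 libraries, which their class requires. Dkk2, a secreted Wnt inhibitor, was lower in it with 0.128, 16.4 and 8.15 CPM at day 1 against 10 in the control. The prostaglandin transporter Slco2a1 had 1.44, 49.0 and 24.1 CPM at day 1 against 35.0 in the control. Ceacam1, an adhesion molecule, had 0.448, 22.9 and 7.47 CPM at day 1 against 6.56 in the control. Replicate 2 was past 2-fold in the opposite direction in Ceacam1, at 1.80 log2 CPM from the control, and in Sphkap, at -1.17. No gene of this paragraph was called by edgeR in either fit.

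Some lists had medians near the control in every day 1 library. None of 24 nuclear genes of the respiratory chain was at least 2-fold higher or lower in all 3 libraries or in replicates 2 and 3, with medians of -0.03, -0.18 and -0.07 log2 CPM. Of 20 genes of endoplasmic reticulum folding, 1 was at least 2-fold higher in replicates 2 and 3, Sdf2l1, a chaperone partner that rose with 1.31, 20.1 and 16.5 CPM at day 1 against 2.05 in the control. Cholesterol synthesis had medians of -0.06, 0.54 and 0.27 log2 CPM, but in replicate 2 its members went both ways, 6 of 22 at least 2-fold higher and 3 lower. Fatty acid oxidation had medians of -0.22, -0.28 and 0 log2 CPM, and in replicate 2, 3 of 25 members were at least 2-fold higher and 4 lower. Single metabolic genes differed far more than these medians. Pdk4, which restrains glucose oxidation, had 112, 20.3 and 71.3 CPM at day 1 against 210.1 in the control. Lpl, lipoprotein lipase, had 3.20, 281 and 47.2 CPM at day 1 against 3.02 in the control. Neither passed the test. Fam111a, a protease of viral restriction and DNA replication, had the smallest adjusted p of the fit with all 6 libraries, 0.136, with 88.7, 90.5 and 108 CPM at day 1 against 1.36 in the control, and rose without replicate 1.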

How the data were processed

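Poly(T)-selected RNA of rat carotid arteries was sequenced, and the count table and the FPKM table of the whole series were used. The authors deposited for 24005 genes a raw read count and an FPKM value (fragments per kilobase per 1000000 fragments) per library. Tools named in the submitters' processing notes are HISAT2, StringTie 1.3.1, Bowtie2 2.2.8 and fastp 0.18.0. Their settings and roles, the genome build and any use of strand were not given in the sources used here. Genes that share reads with near-identical copies are therefore uncertain.

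From the counts, CPM was computed with TMM factors, and library differences as log2 CPM with a prior count of 2. Genes were filtered with edgeR's filterByExpr, which kept 15860. Tests used edgeR 4.0.16 quasi-likelihood fits (R 4.3.3, limma 3.58.1) with Benjamini-Hochberg adjustment at 0.05, on all 6 libraries and without day 1 replicate 1. The SE beside a log2 fold change is not an output of edgeR. It was derived as the size of the fold change divided by the square root of the test's F statistic. DESeq2 1.42.0, limma-voom, limma on log2 FPKM plus 1 or 0.1, other scalings and filters, 1.5- and 4-fold thresholds and leaving out each library were the alternatives. Folds against a control at 0 use a floor of 3 counts per library, which covers counting error only. Groups came from the labels.

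Named were the 6 genes per class, and 4 per direction for replicate 1 alone, with the largest smallest difference at a mean of 8 CPM or more, up to 4 members per list with the largest median difference at 1 CPM or more and members going the other way, and a fixed set. The members and lists were chosen with earlier results of these data known. Named after their values were seen were Socs2, Klf4, Cdc20, Kif20a, Prc1, Plg, Timp4, Smad6, Gsn, Ncam1, Cd163, Ms4a7, Cfb, Pdlim3 and Casq2, and the members of lists that were the only ones called. Promoter letters are from RefSeq (GRCr8), matched by symbol for 11228 of the tested genes. Some items the rule names are not reported here.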

Additional observations from a re-analysis of the deposited data

How the results depend on the processing

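No paired analysis was possible because the control is a single library and no label links it to a day 1 library. The counts of called genes depended on the tool and on replicate 1. With all 6 libraries the count was 0 with edgeR under every scaling and filter, 817 with DESeq2 and 1 with limma on log2 FPKM with a pseudocount of 1 or 0.1, and leaving out 1 library gave 0 to 885. Without day 1 replicate 1 the 885 calls became 2196 with DESeq2, 97 with limma-voom and 568 with limma on log2(FPKM + 1), and 671 to 1158 when a further library was left out. The cause was not tested.

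The 2-fold classes compare single libraries. On log2(FPKM + 1), which shrinks low genes by construction, 339 genes were higher and 124 lower in all 3 libraries, 201 were lower in replicates 2 and 3 alone, and replicate 1 alone was higher for 136 and lower for 250. At 1.5-fold, 1756 were higher and 910 lower in all 3, 1129 lower in replicates 2 and 3 alone and 563 higher in replicate 1 alone. At 4-fold these 4 counts were 385, 97, 99 and 153, and replicate 1 alone was lower for 339. Genes lower in all 3 numbered 618 with no count filter and 240 with a filter of 1 CPM. With 1 library left out, the counts at least 2-fold higher and lower in all that remained ran over 1249 to 2570 and 619 to 937, which must exceed the counts over all 3. The upper ends came without replicate 1, and the count of lower genes also passed 1.5 times its value without replicate 2, at 619, and without replicate 3, at 644.

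Among the named genes of a 2-fold class, the median difference kept its sign when a library was left out except in 5 genes. Leaving out each library in turn gave -1.965 to 1.003 log2 CPM for Tie1, -0.9144 to 1.801 for Cdh5, -1.762 to 0.9908 for Ceacam1, -3.027 to 0.207 for Dkk2 and -0.1083 to 1.739 for Sphkap. Other scalings moved the median of all genes by less than 0.1 and changed the sign of 1 named gene and of no list median. That gene was Ncam1, at 0.05 log2 CPM in the main scaling and -0.04 with upper-quartile factors. Levels of 0 to a few counts in the control, as in Ccl3, Cxcl3 or Mmp12, limit every fold given for such genes.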

Other observations

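Further wall and tissue genes not described above also differed from the control. Among 26 integrin and basement membrane genes, 3 alpha chains rose, none of them counted as 2-fold higher in replicate 1. Itga2, a collagen receptor, had 0.993, 18.8 and 11.6 CPM at day 1 against 0.682 in the control. Itga4, the partner of Vcam1 on leukocytes, had 0.704, 39.7 and 20.5 CPM at day 1 against 0.747 in the control. Itga6, a laminin receptor, had 14.5, 64.6 and 61.2 CPM at day 1 against 14.2 in the control. Among 27 cytoskeleton genes of migrating cells, Ezr, which links actin to the membrane, rose with 19.6, 164 and 89.6 CPM at day 1 against 14.3 in the control. Lgals3, a lectin of phagocytes, rose with 134, 948 and 580.2 CPM at day 1 against 69.1 in the control. Among 16 haem and iron genes, Ftl1, a ferritin chain, rose with 308, 2626 and 1745 CPM at day 1 against 249 in the control. Slc11a1, the iron exporter of phagosomes, rose with 0.512, 99.8 and 45.8 CPM at day 1 against 0.390 in the control. The macrophage marker sums were high in the same 2 libraries, and their part in these differences was not tested.

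Members of nerve and signalling lists were called in both directions. Of 13 nerve and Schwann cell markers, 2 were at least 2-fold higher and 2 at least 2-fold lower in all 3 libraries. The higher ones include Egr2, described above with the early response factors. Medians of the list were -0.08, 0.05 and 0.18 log2 CPM, and 2 members rose and 1 fell. Gap43, a growth cone protein, rose with 0.192, 5.33 and 2.00 CPM at day 1 against 0.0649 in the control, with 2 counts in the control. Erbb3, a neuregulin receptor, rose with 0.192, 6.10 and 6.70 CPM at day 1 against 0.714 in the control, with replicate 1 below the control. Pdpn, a lymphatic and fibroblast membrane protein, rose with 5.06, 81.7 and 38.8 CPM at day 1 against 1.43 in the control. Lef1, a nuclear partner of beta-catenin, rose with 0.416, 3.98 and 1.29 CPM at day 1 against 0 counts in the control. Stc1, a secreted glycoprotein induced by stress, rose with 8.84, 25.6 and 14.5 CPM at day 1 against 3.31 in the control. Of 24 axon guidance genes, 3 rose and 1 fell. Sema4d, a semaphorin of leukocytes and platelets, rose with 1.18, 11.4 and 11.4 CPM at day 1 against 1.85 in the control, with replicate 1 below the control. Sema5a, another semaphorin, fell with 161, 57.8 and 68.5 CPM at day 1 against 209.6 in the control. Of 12 Hox genes, which keep positional identity, none was at least 2-fold from the control in all 3 libraries, with medians of -0.74, -0.37 and -0.49 log2 CPM.

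Markers of tissue next to the carotid were measured too. Of 16 skeletal muscle markers, 2 were at least 2-fold lower in all 3 libraries and 3 in replicates 2 and 3 alone. The 3 tested thyroid and parathyroid markers summed to 0.768, 9.77 and 6.96 CPM at day 1 against 2.47 in the control, and the thyroid factor Pax8 rose with 0.0640, 6.69 and 4.32 CPM at day 1 against 0 counts in the control.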
